A study of Mus musculus with 6 samples.

Results

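Surfactant-rich alveolar type 2 (AT2) cells of the mouse lung were examined in the right lungs of 6 male mice, 12 weeks old, in which part of Ctla4 was replaced by human CTLA4 on a C57BL/6 background. All 6 mice carried this knock-in allele and all received bleomycin, which injures the alveolar epithelium, by the oropharyngeal route at 1.25 U/kg in 2 doses given 2 weeks apart. From day 21 after the second dose, 3 mice received an IgG1 isotype control antibody and 3 received ipilimumab, an antibody against human CTLA4, at 5 mg/kg, 2 times a week for 4.5 weeks. No mouse without bleomycin was part of these 6. Each digested lung gave one 10x Genomics 3′ library, in which unique molecular identifiers (UMIs, tags that count RNA molecules) were counted per gene and per droplet barcode. Library totals, IgG1 first, came to 42665284, 47919257 and 37666042 UMIs, and with ipilimumab to 47897924, 48497310 and 48612412 UMIs.

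A barcode was a member when it had at least 500 UMIs, at least 300 genes and at most 10% of UMIs from mitochondrial (mt-) genes, when Sftpa1, Sftpb, Sftpc and Sftpd together made up at least 5% of its UMIs, and when the airway genes Scgb1a1, Scgb3a1, Scgb3a2, Bpifa1 and Cyp2f2 made up less than 5%. Of 29439 barcodes within the first 3 limits, 216 were members (0.734%). Because these 9 genes chose the members, their levels are given only as a description.

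AT2 cells are the surfactant factories of the alveolus. They make phospholipid and surfactant proteins, pack them into lysosome-related organelles called lamellar bodies, secrete them onto the air surface, and keep a high capacity for lipid synthesis. They also act as progenitors of the flat AT1 cells that line the gas-exchange surface, and after injury they can pass through keratin-rich transitional states.

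The members were unevenly spread over mice. The IgG1 mice had 4, 5 and 0 members, and the ipilimumab mice had 193, 7 and 7, so that 89.4% of all members came from ipilimumab replicate 1. That mouse gave 49.0% of the members' UMIs (477166 of 973436). Median UMIs per member were 12937 and 18645 in IgG1 replicates 1 and 2, and 923, 28005 and 19114 in ipilimumab replicates 1, 2 and 3. In ipilimumab replicate 1, 166 of 193 members had fewer than 2000 UMIs, against 3 in all other mice together. The other barcodes of that library were shallow as well: 53.1% had fewer than 2000 UMIs, whereas the other 5 libraries had 3.96% to 6.98%. That library also had 22056 barcodes of at least 100 UMIs, compared with 4834 to 6230 elsewhere. Members of at least 2000 UMIs are called deep below and the rest shallow. There were 47 deep members, 4, 4 and 0 in the IgG1 mice and 27, 6 and 6 in the ipilimumab mice. Of the 216 members, 1 shared its barcode with another library, compared with 197 of all 29439 barcodes. In ipilimumab replicate 1, 0 of the shallow members lay 1 base from a deep one.

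**Figure D1:**
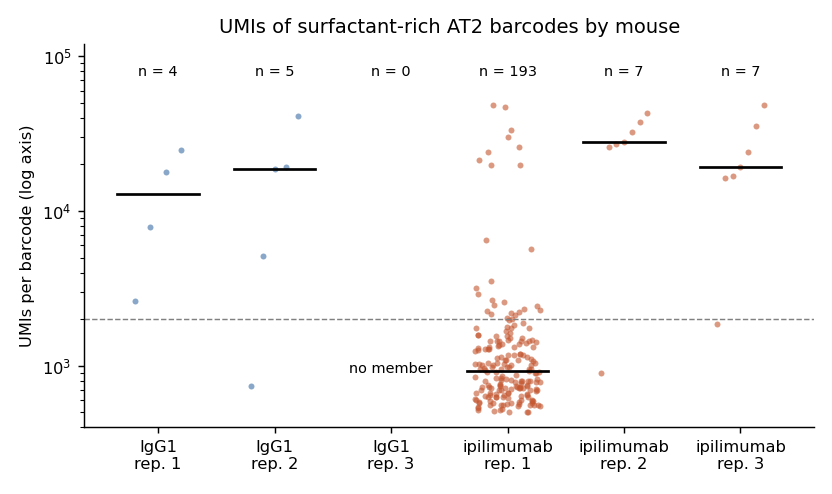
UMIs per member barcode (log axis) in each of the 6 mice, IgG1 in blue and ipilimumab in red, with the median as a black bar and a dashed line at 2000 UMIs. Most of the 193 members of ipilimumab replicate 1 lie under the dashed line, whereas 20 of the 23 members of the other mice lie above it.

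The AT2 name was checked against its markers. Slc34a2, a phosphate transporter of the AT2 apical membrane (chr5:53038081-53071664 in GRCm38), had a level, in CPM (counts per 1000000 of the members' summed UMIs), of 3506 in IgG1 replicate 1 and 4355 in IgG1 replicate 2, and of 3206, 3128 and 3443 in the ipilimumab mice. Lamp3, a membrane protein of lamellar bodies (chr16:19653378-19706375), was at 1931 and 1978 CPM, and at 1285, 1362 and 1057 CPM. Etv5, a transcription factor downstream of FGF signals that maintains AT2 identity (chr16:22381309-22439719), was at 599.9 and 682.7 CPM, and at 473.6, 368.7 and 375.0 CPM. All 3 were high in every mouse with members and close to absent from the other barcodes of the same libraries, at a mean of 0.73 CPM for Slc34a2, 0.95 CPM for Lamp3 and 3.24 CPM for Etv5. Napsa, the protease that processes surfactant protein precursors (chr7:44572380-44586862), averaged 1613 ± 230 CPM (SD, n = 5 mice) but stood at 113 CPM in the other barcodes, so it was less exclusive. Sftpc (chr14:70520949-70524081), one of the genes of the rule, averaged 146073 ± 20752 CPM.

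Shallow members carried the same markers at a lower rate. At least 1 Slc34a2 UMI was found in 74.1% of the 166 shallow members of ipilimumab replicate 1 (median 811.5 UMIs), in 100% of its 27 deep members (median 2924 UMIs) and in 100% of the 20 deep members of the other mice. B cells, which should lack the gene, served as background. Among 300 barcodes of the same library with UMIs of both Cd79a and Ms4a1 (median 6005 UMIs), 0.333% had a Slc34a2 UMI. After every barcode was thinned to 500 UMIs, the shares were 60.2% of shallow members, 74.1% of deep members, 80.0% of deep members of the other mice and 0% of the B cell barcodes. The Lamp3 share was 31.9% in thinned shallow members and 48.1% in thinned deep ones. Napsa was in 75.7% of the deeper B cell barcodes and in 63.9% of shallow members before thinning, and in 14.3% and 42.8% after it, so its presence in a single barcode marked AT2 cells poorly without equal depth.

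The free RNA of the libraries held little surfactant. In barcodes of fewer than 100 UMIs, which are mostly empty droplets, the 4 surfactant genes made up 0.0189%, 0.0292% and 0.00297% of UMIs after IgG1 treatment and 0.219%, 0.111% and 0.0531% after ipilimumab. The highest of these shares, in ipilimumab replicate 1, lay far under the 5% limit of the rule. Just outside the limit, that mouse had 12 barcodes with 4% to 5% surfactant UMIs, whose summed Slc34a2 level was 384 CPM. Just inside it had 12 with 5% to 6%, at 1606 CPM, and 13 with 6% to 7%, at 920 CPM. In the 112 members with 10% to 20%, Slc34a2 was at 3529 CPM. The boundary in that mouse was therefore graded. Ipilimumab replicates 2 and 3 each had 1 member under 10%, at 5.72% and 6.79%, and the IgG1 mice had 0. Outside the limit, 1 barcode of IgG1 replicate 2 with 3% to 4% surfactant UMIs had Slc34a2 at 4030 CPM and Lamp3 at 3287 CPM. Another of that mouse, with 2% to 3%, had Slc34a2 at 0 CPM.

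Apart from the genes of the rule, Cxcl15, Slc34a2, Ank3 and Lamp3 differed most between members and the other barcodes of the same libraries. The differences below are of log2(CPM + 10), averaged over the 5 mice with members, and carry no test because the members were chosen by expression. Cxcl15, a lung-restricted chemokine (chr5:90794534-90803067), led with 5827 ± 964 CPM in members and 2.53 CPM in the rest, a difference of 8.86. Slc34a2 followed with 8.36, Ank3, a membrane scaffold protein, with 7.57, Lamp3 with 7.09, Chil1, a chitinase-like secreted protein, with 7.07, and Hc, complement component C5, with 7.03. S100g, a calcium-binding protein, Ppp1r14c, Wfdc2, a secreted protease inhibitor-like protein, Sfta2, Acoxl, the tight junction gene Cldn18, Mecom, Car8, Scd1, Ager, Cbr2, Etv5, Sfta3-ps and Ptprf made up the rest of the 20, from 6.61 down to 5.15. For each of these 20 genes the level was higher in members than in the rest in all 5 mice. Ager is usually read as an AT1 marker, and it stood at 583 ± 131 CPM here against 4.64 CPM in the rest.

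By level alone, the most abundant gene outside the rule was Lyz2, lysozyme, at 24561 ± 3252 CPM. It was followed by the nuclear RNA Malat1 at 18696 ± 6845 CPM, by Gm42418, which overlaps ribosomal RNA, at 17099 ± 5456 CPM, by mt-Co1, mt-Atp6, mt-Co3 and mt-Co2, by Tmsb4x at 8086 ± 1609 CPM, by Cxcl15 and by mt-Cytb at 5313 ± 870 CPM. Lyz2 is known from both macrophages and AT2 cells, so it was left out of the leukocyte markers used below. The genes with the largest deficit in members were the macrophage genes Chil3 (log2 difference −5.78), Spp1, Fn1 and Ccl6, the lymphocyte genes Igkc (−5.58), Ccl5 (−5.50), Ebf1, Gzma and Dock10, and Kcnip4.

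The 20 genes of the surfactant phospholipid and lamellar body list summed to 15803 and 16091 CPM in IgG1 replicates 1 and 2 and to 14458, 17127 and 13549 CPM in the ipilimumab mice, a narrow range in which the groups overlapped. Beside the markers, Npc2, a cholesterol carrier of lysosomes, averaged 3319 ± 762 CPM, Fabp5, a fatty acid carrier, 889 ± 721 CPM, Lpcat1, which makes the saturated phosphatidylcholine of surfactant, 862 ± 250 CPM, and Acoxl 823 ± 340 CPM. The 18 fatty acid synthesis genes summed to 7986 and 8687 CPM, and to 7865, 8976 and 7555 CPM. Scd1, the desaturase that makes monounsaturated fatty acids, was the largest of them at 4705 ± 484 CPM, followed by the elongase Elovl1 at 801 ± 337 CPM, Fasn at 521 ± 89.9 CPM, Scd2 at 502 ± 162 CPM and Acsl4 at 481 ± 243 CPM.

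Cholesterol genes were at a much lower level and varied more between mice. Their 16 genes summed to 1087 and 848 CPM in the IgG1 mice and to 1440, 1756 and 541 CPM in the ipilimumab mice, with Fdps, Hmgcs1, Idi1 and Srebf2 among the most abundant. Ipilimumab replicate 3 was the lowest of the 5 and ipilimumab replicate 2 the highest. Of the lipid storage genes, the fatty acid transporter Cd36 averaged 1001 ± 242 CPM and Soat1 348 ± 69.3 CPM, whereas Plin2, the coat protein of lipid droplets, was at 82.5 ± 25.3 CPM in members and 502 CPM in the other barcodes.

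The leading stress genes were near their level in the other barcodes. The chaperone of the endoplasmic reticulum Hspa5 averaged 447 ± 35.7 CPM in members and 519 CPM in the rest, and Hspa8 971 ± 105 CPM and 964 CPM. Of the 17 unfolded protein response genes measured, Chac1 alone had 0 UMIs in all members. Gclc, which sets the rate of glutathione synthesis, was an exception at 863 ± 345 CPM against 103 CPM in the rest, and led an oxidative stress list in which Prdx1, Txn1, Mgst1 and Cat followed.

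The 23 genes of the injury-induced transitional state summed to 2550 and 2696 CPM in members of the IgG1 mice and to 2825, 2417 and 2416 CPM with ipilimumab. The other barcodes of the same mice were at 2451 and 3570 CPM, and at 2335, 3259 and 3303 CPM, and the free RNA of ipilimumab replicate 1 was at 3253 CPM. Krt8 averaged 243 ± 76.9 CPM, Krt18 253 ± 60.3 CPM, Nupr1 326 ± 90.7 CPM, Areg, an EGF-family ligand, 296 ± 109 CPM and S100a6 267 ± 242 CPM. Krt8 UMIs lay in 2 of 4 and 4 of 5 members of IgG1 replicates 1 and 2, in 22 of 166 shallow and 15 of 27 deep members of ipilimumab replicate 1, and in 6 of 7 and 7 of 7 members of ipilimumab replicates 2 and 3. The median depths of the shallow and deep members of ipilimumab replicate 1 were 811.5 and 2924 UMIs, and Krt8 was in 0 of 300 B cell barcodes of that mouse, of median 6005 UMIs. After thinning to 500 UMIs, Krt8 was in 5.42% of shallow and 14.8% of deep members of ipilimumab replicate 1. It was in 8.33% of the 12 deep members of ipilimumab replicates 2 and 3, close to what 1 UMI can show. Among the 8 deep IgG1 members the thinned share was higher than each of these ipilimumab shares. The higher unthinned counts of ipilimumab replicates 2 and 3 were therefore not seen at equal depth. Sets this small do not order the treatments. Cldn4, another gene of that state, had a UMI in 0 of 166 shallow members of ipilimumab replicate 1, in 1 of its 27 deep members and in 1 of 20 elsewhere. The 20 cell division genes summed to 412 and 600 CPM in members of the IgG1 mice and to 694, 430 and 805 CPM with ipilimumab, led by the cyclin Ccnd1 at 184 CPM, and to 946 and 1174 CPM, and 1278, 942 and 1026 CPM, in the other barcodes. Mki67 had a UMI in 0, 2 and 1 of the same members, where the depth of the shallow ones limits what can be seen. Cdkn2a, a senescence marker, had 0 UMIs in any member.

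The primed or inflammatory AT2 list, most of it Lyz2, summed to 28589 and 28227 CPM for IgG1 and 21588, 29933 and 31033 CPM for ipilimumab. Other members of it varied more. Lcn2, an iron-chelator carrier of the innate response, was at 169 CPM in IgG1 replicate 1, 930 CPM in IgG1 replicate 2 and 1008, 461 and 1592 CPM in the ipilimumab mice, so that the groups overlapped. One barcode held 180 of its 259 UMIs in ipilimumab replicate 3. Lyz1, close in sequence to Lyz2 and so of uncertain read assignment, had 0 and 41 UMIs in the IgG1 mice and 129, 3 and 450 in the ipilimumab mice, and single members held 41 of the 41 and 293 of the 450. Il33, an alarmin, had 8 and 33, and 112, 55 and 87 UMIs, of which 78 of the last 87 lay in 1 member. With 4 to 7 members in 4 of these 5 mice, single barcodes set the level of such genes.

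Class II antigen presentation genes had UMIs in members, in the other barcodes and in the free RNA. Cd74 averaged 3475 ± 870 CPM in members and 3179 CPM in the other barcodes, most of which are leukocytes, and H2-Aa 952 ± 231 and 968 CPM. The summed list ran from 4152 CPM in ipilimumab replicate 2 to 7721 CPM in ipilimumab replicate 3, with the IgG1 mice at 5362 and 5803 CPM in between. In ipilimumab replicate 1 the list was at 7911 CPM in shallow and 5810 CPM in deep members, and at 9569 CPM in the free RNA. The part of free RNA in the members' levels was not tested.

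Markers of other cell types made up a small share of the members' UMIs, and the share differed between mice. The 84 markers of leukocytes, endothelium and fibroblasts, without Lyz2, made up 0.06% and 0.04% of the members' summed UMIs in IgG1 replicates 1 and 2 and 0.72%, 0.48% and 0.32% in the ipilimumab mice. The summed alveolar macrophage list was at 37.5 and 35.3 CPM for IgG1 and 58.7, 76.8 and 633 CPM for ipilimumab, with Chil3 most abundant and Ear6 at 0. The T and NK list was at 18.7 and 0 CPM, and 170, 0 and 480 CPM, with Ccl5 most abundant and Cd8a at 0. The B list reached 1021 CPM in ipilimumab replicate 1, led by Igkc. The neutrophil list reached 2780 CPM in ipilimumab replicate 2, led by S100a9, with Ly6g at 0. The endothelial list was at 93.7 and 0 CPM, and 1410, 696 and 1174 CPM, led by Pecam1, and the fibroblast list at 93.7 and 106 CPM, and 3823, 66.6 and 86.1 CPM, led by Mgp, with Cspg4 and Acta2 at 0. C1qa, C1qb, C1qc, Ms4a7 and Fcgr1, from the list of other macrophage and monocyte genes, had 0 UMIs in all members. Of the airway secretory list, Scgb3a2, Bpifa1, Gabrp, Cldn10, Muc5b, Bpifb1, Reg3g and Tff2 were at 0 and Cbr2 was the most abundant at 1418 ± 553 CPM. Ciliated markers were led by the widely expressed Dynll1, with Ccdc153 and Tmem212 at 0, and erythroid ones by Hbb-bs, with Alas2 at 0.

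In ipilimumab replicate 2, the 2 members with at least 0.3% of UMIs from the 84 markers held 287 of 287 S100a9 UMIs and 38 of 38 Ptprc UMIs, where Ptprc is the leukocyte antigen CD45. In ipilimumab replicate 3, the 3 such members held 23 of 28 Ptprc UMIs, and 1 of them held all 24 UMIs of Cdh5, the endothelial cadherin. These genes are among the 84 markers by which the barcodes were singled out, so the counts describe that choice. The member of ipilimumab replicate 2 with the highest share, 1.85%, had 32535 UMIs and the lowest surfactant share of its mouse, 5.72%, with 137 Slc34a2 UMIs beside 234 of S100a9. No IgG1 member reached 0.3%, and their highest share was 0.271%. In ipilimumab replicate 1, 158 of 193 members did. Whether these barcodes were droplets with more than 1 cell was not tested, and no doublet caller was run on them.

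**Figure D2:**
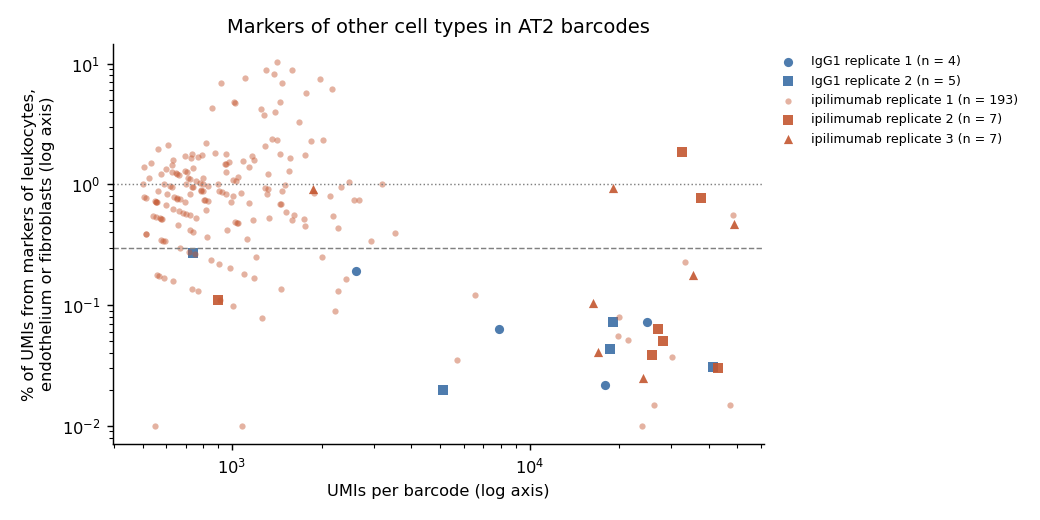
Percent of a member's UMIs that came from 84 markers of leukocytes, endothelium and fibroblasts (log axis; members at 0 are drawn at 0.01%) against its UMI total (log axis), for the 5 mice with members, with lines at 0.3% and 1%. Most members of ipilimumab replicate 1 under 2000 UMIs lie above 0.3%, and 5 members of ipilimumab replicates 2 and 3 do, while all 9 IgG1 members lie below it.

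How the profile changed with UMI depth could be read in 1 mouse, ipilimumab replicate 1, because no other mouse had 3 members in both depth classes. The comparison of its 166 shallow members (155474 UMIs) with its 27 deep members (321692 UMIs) therefore has no replicate and no test, and the 95% Poisson intervals given cover counting error only. Of the deep UMIs, 84.0% came from 9 members of 19850 to 48307 UMIs, and the other 18 deep members had 2008 to 6532 UMIs each, so that the deep values are mostly the profile of 9 barcodes. Several AT2 genes were lower in the shallow sum. Cxcl15 was at 3261 CPM in shallow and 6217 CPM in deep members, Slc34a2 at 2110 CPM (1888 to 2351) and 3736 CPM (3528 to 3954), Scd1 at 2779 and 5412 CPM, Lamp3 at 888 and 1477 CPM and Lpcat1 at 379 and 917 CPM. The intervals of Slc34a2 do not overlap. In the 18 deep members of under 10000 UMIs taken alone, Cxcl15 was at 5059 CPM, Slc34a2 at 3334 CPM, Lamp3 at 1047 CPM and Lpcat1 at 756 CPM, while Scd1, at 2985 CPM, was close to its shallow level. Of the rule genes, Sftpc was at 97733 CPM in shallow and 147822 CPM in deep members, Sftpb at 4670 and 7871 CPM, Sftpa1 at 20010 and 21176 CPM and Sftpd at 3338 and 3590 CPM. In contrast, Lyz2 was at 18865 and 19205 CPM, Lcn2 at 978 and 1023 CPM and Wfdc2 at 2200 and 2263 CPM, and for these 3 genes the intervals overlap. In the 18 deep members of under 10000 UMIs they were higher, at 21536, 1318 and 2830 CPM, so the match to the shallow level is one of the deep sum.

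The 20 genes lowest in shallow relative to deep members, among those with at least 20 UMIs in the 2 classes together, were led by Cadm2, an adhesion molecule whose gene spans 965 kb, with 0 UMIs in shallow members and 80 in deep ones (249 CPM), all 80 of them in 5 of the 9 deepest members and 0 in the other 18. They also held Fhit (2 and 48 UMIs), Wwox (10 and 127), Ctnnd2 (3 and 65), Mpp7 (3 and 75), Acoxl (40 and 441), Kctd8 (11 and 130) and Ahcyl2 (16 and 174), together with Ptprn2, Stox2, Bmp5, Arhgap44, Bex2, Macc1, Stard13, Clmn, Tmem97 and the noncoding 9130230L23Rik and Gm16685. Genes spanning at least 100 kb, taken without the 9 rule genes, gave 14.6% of the UMIs of shallow and 18.3% of the UMIs of deep members. Among the other barcodes of the same mouse the share was 15.2% for those under 2000 UMIs and 18.6% for all. The order was the same in ipilimumab replicate 2 (15.7% and 17.8%) and IgG1 replicate 3 (18.1% and 19.5%), and the other way in IgG1 replicate 1 (19.09% and 18.96%), IgG1 replicate 2 (20.6% and 17.9%) and ipilimumab replicate 3 (18.96% and 17.16%). Mitochondrial UMIs were 3.94% of the shallow and 5.37% of the deep sum, and ribosomal protein UMIs 10.9% and 8.28%.

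Among the 20 genes highest in shallow relative to deep members, Mgp, the matrix Gla protein of fibroblasts and mural cells (chr6:136872435-136875823), was at 6052 CPM in shallow and 354 CPM in deep members. Within the deep members it was at 2152 CPM in the 18 of under 10000 UMIs and at 11.1 CPM in the other 9. Gsn was at 2746 and 171 CPM, Dcn, the collagen-binding decorin, at 823 and 68.4 CPM, Clec3b at 354 and 18.7 CPM, and Igkc, the kappa immunoglobulin chain, at 1119 and 87.0 CPM. Serping1, Igfbp4, Col3a1, Hmcn1, Lgals1, Coro1a, Ly6d, Ptprc, Cd52, Ccl5, Itga4, Siglech, Ppp1r16b, Kcnq5 and Tyrobp completed the 20.

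These foreign transcripts followed 2 patterns across barcodes. Mgp was unevenly held, with a UMI in 34 of 166 shallow members and at least 10 UMIs in 22 of them, up to 90. The 22 members in which the fibroblast list made up at least 1% of UMIs (1.76% to 9.99%) held 94.6% of that list's UMIs in shallow members. They had a median of 1387 UMIs and 31.5 Mgp UMIs, and their summed Mgp level of 30729 CPM compared with 136 CPM in the other 144 shallow members and 530 CPM in the free RNA. Compared with the other 144, AT2 genes differed in both directions, with Lamp3 at 1231 and 805 CPM, Cxcl15 at 3692 and 3158 CPM, Slc34a2 at 1829 and 2177 CPM, Napsa at 765 and 1188 CPM, and a median surfactant share of 13.83% and 11.97%. Igkc followed the other pattern, spread thinly, with at most 8 UMIs in a barcode and a UMI in 80 of 166 shallow members. Its level in them, 1119 CPM, was under the 2705 CPM of the free RNA.

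Members with at least 1% foreign markers in ipilimumab replicate 1 were 40 of 106 at 500 to 1000 UMIs, 31 of 60 at 1000 to 2000, 4 of 16 at 2000 to 5000, and 0 of 11 above, so their share was highest at 1000 to 2000 UMIs and lower in the deeper classes. The median surfactant share went from 11.3% and 14.3% in the lower classes to 19.6% at 2000 to 5000 UMIs, 20.3% at 5000 to 10000 and 18.2% above. The few shallow members of other mice did not all look alike, with surfactant shares of 20.6% in IgG1 replicate 2, 19.6% in ipilimumab replicate 2 and 10.3% in ipilimumab replicate 3. When the 71 shallow members with at least 1% foreign markers were left out, the shallow levels were 2476 CPM for Slc34a2, 917 CPM for Lamp3 and 3642 CPM for Cxcl15, still under the deep ones. Depth, library and foreign RNA moved together here and their parts in the result cannot be told apart in 1 library.

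**Figure D3:**
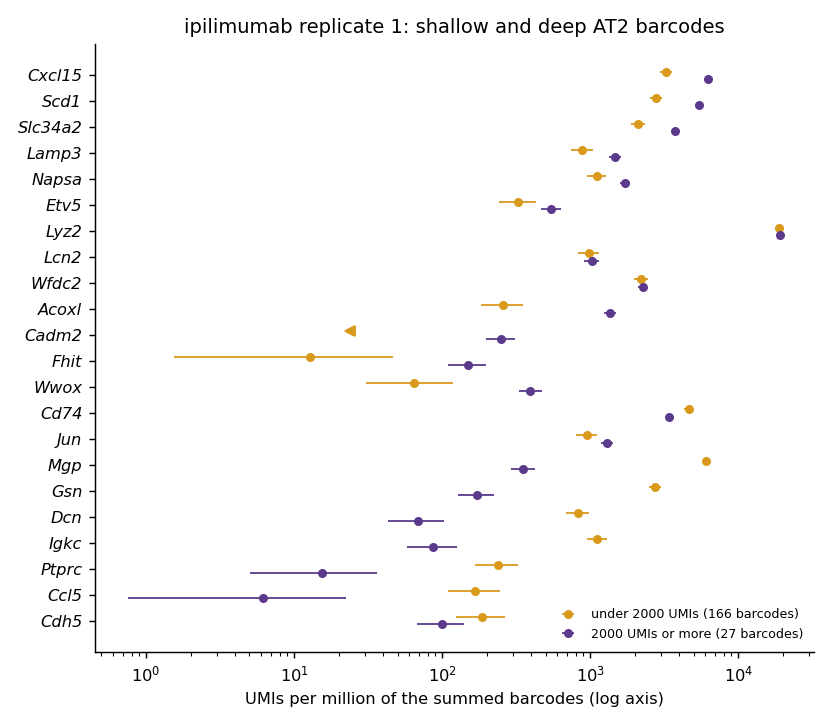
Levels in CPM (log axis) of 22 genes in the summed shallow (gold) and deep (purple) members of ipilimumab replicate 1; bars are 95% Poisson intervals of counting error, and the gold arrowhead for Cadm2 marks the upper limit of a count of 0. AT2 genes such as Slc34a2 sit higher in deep members, Lyz2, Lcn2 and Wfdc2 coincide, and Mgp, Gsn, Dcn and Igkc sit higher in shallow members.

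Treatments were compared with the mouse as the unit. The share of members among barcodes within the limits is given with its 95% Wilson interval. It was 0.0860% (0.0334% to 0.221%), 0.113% (0.0483% to 0.264%) and 0% (0 of 3421, 0% to 0.112%) in the IgG1 mice. In the ipilimumab mice it was 2.32% (2.01% to 2.66%), 0.161% (0.0780% to 0.332%) and 0.164% (0.0795% to 0.338%). All 3 ipilimumab shares lay above all 3 IgG1 shares. The means were 0.0664% ± 0.0591 (SD, n = 3) and 0.880% ± 1.24 (SD, n = 3), and the exact two-sided permutation test gave p = 0.1, the smallest value that 3 against 3 mice allow. The size of the difference, 0.814 percentage points, rested on ipilimumab replicate 1 and was 0.0962 without it. Outside that mouse the intervals of the single shares overlapped.

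The difference also depended on the UMI minimum. At 2000 UMIs the IgG1 shares were 0.0905%, 0.0942% and 0%, against 0.702%, 0.148% and 0.147% with ipilimumab, and at 5000 UMIs 0.0988%, 0.137% and 0%, and 0.380%, 0.196% and 0.192%. The order of the groups held at every minimum up to 10000 UMIs, with p = 0.1 by the exact permutation test, while the difference was 0.271 percentage points at 2000 UMIs and 0.177 at 5000. At 10000 UMIs the means were 0.130% and 0.569%, farther apart again. With members of at least 0.3% foreign markers left out, the shares were 0.0860%, 0.113% and 0% against 0.420%, 0.115% and 0.0938%, so that the groups overlapped (exact permutation p = 0.2). This limit was chosen after the data were seen and lies just above the highest IgG1 member, so that it took out 0 of 4 and 0 of 5 IgG1 members and 158 of 193, 2 of 7 and 3 of 7 ipilimumab members and could only lower the ipilimumab shares. With a limit of 1% the shares were 0.0860%, 0.113% and 0% against 1.42%, 0.138% and 0.164%, with no overlap (exact permutation p = 0.1).

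**Figure D4:**
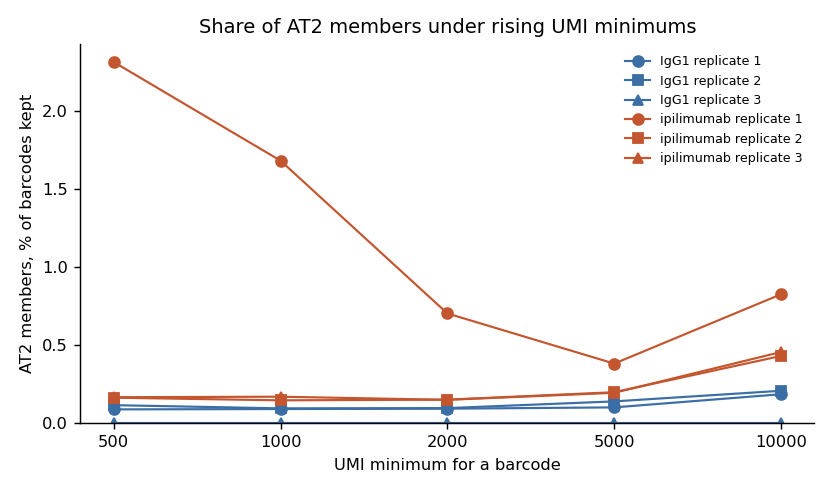
Members as a percent of all barcodes kept, for each mouse (IgG1 blue, ipilimumab red), under UMI minimums of 500, 1000, 2000, 5000 and 10000. The share of ipilimumab replicate 1 drops from 2.32% at 500 UMIs to 0.380% at 5000 and stands at 0.825% at 10000, and the other 5 mice stay under 0.5% throughout, with the 3 IgG1 mice lowest.

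Median UMIs per member overlapped between treatments. The means were 15791 for the 2 IgG1 mice with members and 16014 for the 3 ipilimumab mice (exact two-sided permutation p = 1.0; the smallest p that 2 against 3 mice allow is 0.2), and the ipilimumab mice held both the highest and the lowest median. Over members of at least 5000 UMIs the means were 18419.25 and 25259.5 and the groups did not overlap (exact permutation p = 0.2).

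Expression between treatments was compared on UMIs summed per mouse, in IgG1 replicates 1 and 2 (53343 and 84954 UMIs) and the 3 ipilimumab mice (477166, 195305 and 162668 UMIs), with edgeR's quasi-likelihood test and Benjamini-Hochberg adjustment over 2884 genes. IgG1 replicate 3 had no members and did not enter. A call needed an adjusted p under 0.05 together with a log2 fold change beyond 0.3 in either direction, and 0 genes (0%) met both. At an unadjusted p under 0.05 there were 254 genes (8.81%), 185 higher with ipilimumab (6.41%) and 69 lower (2.39%). Of the genes tested, 48 had 0 UMIs in both IgG1 mice and could only be higher, and 44 of them were among the 254. For 797 genes (27.6%) the 2 groups of mice did not overlap. DESeq2 called 1 gene, Timp3. The median log2 fold change of all genes tested was 0.04.

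Timp3, an inhibitor of matrix metalloproteinases (chr10:86300372-86349506), had the smallest p. It had 3 and 2 UMIs in the IgG1 mice and 173, 111 and 50 in the ipilimumab mice, so the groups did not overlap. The log2 fold change was 3.41 (SE 0.57, edgeR adjusted p = 0.121, not called). Timp3 passed the low-count filter only through the ipilimumab sums and was picked by its p. Neither this size nor the DESeq2 call is therefore read as a result. In ipilimumab replicate 2, 91 of the 111 UMIs lay in members with under 0.3% foreign markers, and 78 in 1 barcode. Limd1, a LIM-domain scaffold protein (chr9:123478706-123521552), was the gene among the 10 of smallest p that was lower with ipilimumab. It had 11 and 20 UMIs, and 26, 10 and 8 in the deeper ipilimumab sums, with a log2 fold change of −2.13 (SE 0.41, edgeR adjusted p = 0.121, not called). Limd1 passed the low-count filter only through the IgG1 sums and was picked by its p, so its size is not read as a result either. In IgG1 replicate 2, 17 of the 20 UMIs lay in 1 barcode, which held 41351 of the 84954 member UMIs of that mouse.

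Among the other 8 of the 10 genes of smallest p, 6 had 0 UMIs in both IgG1 mice: Pim1, a serine/threonine kinase, Pde4b, a cyclic AMP phosphodiesterase, Cdh5, Aff3, Ptprc and Plcb1. All 6 passed the low-count filter only through the ipilimumab sums and were picked by their p, so no size of change is given for them. In ipilimumab replicates 2 and 3, 1 barcode each held 59 of 59 and 43 of 44 Plcb1 UMIs. The same 2 barcodes held 18 of 18 and 24 of 24 Cdh5 UMIs. Ifitm3, an interferon-induced antiviral protein, had 0 and 1, and 68, 44 and 65 UMIs, and Pitpnc1 0 and 2, and 68, 42 and 29. Both also passed the filter only through the ipilimumab sums. None of the 8 was called. Members with at least 0.3% foreign markers held 45.2%, 36.0% and 42.9% of all member UMIs in ipilimumab replicates 1 to 3. Of the UMIs of single genes they held all 44 and all 65 of Ifitm3, all 53 and 33 of 39 of Pde4b, and all 59 and 43 of 44 of Plcb1 in ipilimumab replicates 2 and 3, and 67 of 68, 48 of 49 and 41 of 41 in ipilimumab replicate 1. Pim1 was spread more widely, with 36 of 55, 35 of 39 and 10 of 23 UMIs in such members. With members of at least 1% foreign markers left out, 205 of 2870 genes (7.14%) had an unadjusted p under 0.05. With the limit at 0.3%, which took out ipilimumab members alone, there were 62 of 1574 (3.94%).

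Lists are described beside the background of 8.81% of all genes at an unadjusted p under 0.05 and a median log2 fold change of 0.04. All 16 immediate early genes, the transcription factors and feedback regulators that cells switch on within minutes of a stimulus or of dissociation, had positive fold changes, with a median of 1.11, and 6 had an unadjusted p under 0.05, one of them Ier3, with 0 UMIs in both IgG1 mice. Their summed level was 4893 and 1318 CPM in the IgG1 mice and 6889, 7552 and 5330 CPM in the ipilimumab mice. IgG1 replicate 2 was far under the other 4 mice, and IgG1 replicate 1 was just under the lowest ipilimumab mouse. Fos had 31 and 4 UMIs, and 303, 145 and 69, Egr1 13 and 3, and 353, 104 and 80, and Junb 20 and 3, and 330, 142 and 135. Without IgG1 replicate 2 the median of the list was 0.27, with 13 of 16 positive and 4 at p under 0.05, and without IgG1 replicate 1 it was 3.67, so 1 mouse set most of this difference. The list was at 7360 and 7234 CPM in the other barcodes of IgG1 replicates 1 and 2, at 7449, 7593 and 7070 CPM in those of the ipilimumab mice, and at 12758 CPM in the free RNA of ipilimumab replicate 1. With members of at least 1% foreign markers left out, 16 of 16 were positive and 6 were at p under 0.05, and with the limit at 0.3%, 13 of 13 were positive and 4 were at p under 0.05.

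The MHC class I and interferon response list had 9 genes tested, all with positive fold changes, a median of 1.63 and 6 at an unadjusted p under 0.05. The summed list was at 844 and 2048 CPM, and at 3198, 3031 and 5232 CPM, with no overlap. B2m, the shared light chain of class I, had 7 and 22 UMIs, and 277, 86 and 148, and H2-D1, a class I heavy chain, 11 and 48, and 394, 182 and 186. In ipilimumab replicate 3, 114 of the 148 B2m UMIs and 111 of the 186 H2-D1 UMIs lay in its 3 members with at least 0.3% foreign markers, which held 42.9% of its member UMIs. With members of at least 1% foreign markers left out, 9 genes of the list were tested, all positive with a median of 1.57 and 4 at p under 0.05. With the limit at 0.3%, 3 genes of the list were tested, all 3 positive with a median of 0.61 and 0 at p under 0.05. B2m and H2-D1 were also at 1419 and 1275 CPM in the other barcodes, above their 464 and 734 CPM in members. Of 12 endothelial markers 5 were tested. Of these, Calcrl, Cdh5, Cldn5 and Egfl7 had 0 UMIs in both IgG1 mice and passed the low-count filter only through the ipilimumab sums, and Pecam1 had 5 and 0 UMIs, and 47, 38 and 53.

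Of the 4 AT2 markers the rule did not use, 3 had lower levels in every ipilimumab mouse than in either IgG1 mouse, beside 27.6% of all genes whose groups did not overlap in either direction, and 2 had an unadjusted p under 0.05. Lamp3 had a log2 fold change of −0.72 (SE 0.25, edgeR unadjusted p = 0.015) and Etv5 of −0.71 (SE 0.30, edgeR unadjusted p = 0.040), Slc34a2 of −0.32 and Napsa of 0.13. None was called. Of the AT2 identity genes tested other than the rule gene Sftpa1, Gata6 had a positive value and 9 had negative ones, and 1 had a p under 0.05, Etv5 again. With members of at least 1% foreign markers left out, Lamp3 was at −0.65 (edgeR unadjusted p = 0.023) and Etv5 at −0.61 (edgeR unadjusted p = 0.063). With the limit at 0.3%, Lamp3 was at −0.50 (edgeR unadjusted p = 0.066), Etv5 at −0.40, Slc34a2 at −0.16 and Napsa at 0.51.

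Of 17 surfactant phospholipid and lamellar body genes tested, 1 was higher and 2 lower at p under 0.05, with a median of −0.21, against 6.41% and 2.39% of all genes. Fabp5 was the higher one, with 21 and 25 UMIs in the IgG1 mice and 545, 398 and 94 in the ipilimumab mice (log2 fold change 1.82, SE 0.50, edgeR unadjusted p = 0.004, not called). Lamp3 and Lpcat1 were the lower ones. Of 12 fatty acid synthesis genes, 1 was lower, Elovl1, and the median was −0.21. Of 9 cholesterol genes none had a p under 0.05, and the median was 0.56, which was −0.13 without ipilimumab replicate 1 and −0.20 without ipilimumab replicate 2. Of 6 lipid storage and efflux genes tested, none had a p under 0.05 apart from Dgat1. It had 0 UMIs in both IgG1 mice and 7, 15 and 16 in the ipilimumab mice, and is one of the 48 such genes of which 44 had a p under 0.05, so its p is not read as a result.

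Stress and injury lists are small, and their counts stand beside 6.41% of all genes higher and 2.39% lower at p under 0.05. Of 12 injury transition genes, Cdkn1a and Plaur were higher at p under 0.05 and none lower, with a median of −0.22. Cdkn1a, the p21 cell cycle inhibitor, had 8 and 3 UMIs, and 138, 43 and 34, and a log2 fold change of 1.45 (SE 0.57). Of 11 unfolded protein response genes and 10 heat shock genes, 0 had a p under 0.05, with medians of 0.52 and −0.09. In the primed AT2 list, 1 of 9 did, Nfkbia, the feedback inhibitor of NF-κB, which was higher, and 0 of 6 MHC class II genes did. Of 8 FGF, WNT and BMP response genes, 2 were higher and 2 lower at p under 0.05, beside 6.41% and 2.39% of all genes. That list summed to 2475 and 2601 CPM in the IgG1 mice and to 1909, 1951 and 1881 CPM with ipilimumab. Of 5 senescence and p53 target genes, 1 was higher at p under 0.05 and none lower, beside 6.41% and 2.39% of all genes. Their list summed to 750 and 436 CPM, and to 1044, 1034 and 904 CPM.

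**Figure D5:**
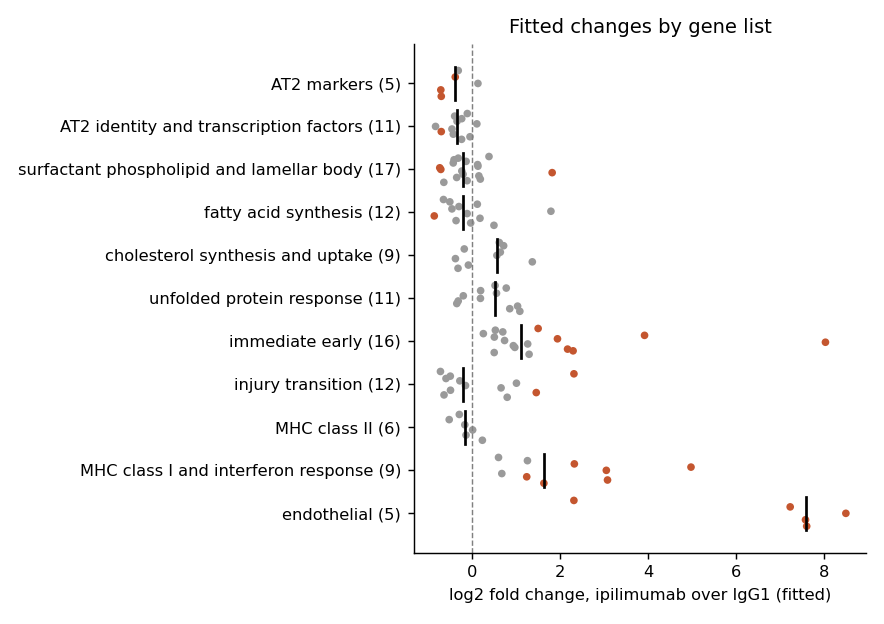
Fitted log2 fold change (ipilimumab over IgG1; 2 IgG1 and 3 ipilimumab mice) of every gene tested in 11 lists, with the number tested in parentheses; red points have an unadjusted p under 0.05, grey points do not, and black bars are list medians, in which the first 2 lists include the rule genes Sftpc and Sftpa1. No gene was called after adjustment; fitted values above about 7 belong to genes with 0 UMIs in both IgG1 mice and are not sizes of change.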

How the data were processed

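The authors deposited unfiltered matrices of UMI counts per gene and barcode, made with Cell Ranger (version 7.0.0 in the submitters' processing notes) on mm10, one per mouse. Barcodes were kept by the limits given above, and member counts were summed per mouse. The members and gene lists were chosen with earlier results of these data known. Mice with at least 3 members were compared with edgeR 4.0.16 (R 4.3.3; TMM factors, its low-count filter, quasi-likelihood test, Benjamini-Hochberg adjustment), which was tested on simulated data, with DESeq2 1.42.0 as an alternative. Shares and medians were compared by exact two-sided permutation over mice (scipy 1.17.1). Wilson and Poisson intervals cover counting error only. Each library was 1 mouse, so p-values measure the spread between these mice. Named were the markers, the rule genes, up to 5 most abundant genes of each list, the 20 genes of largest difference (and 10 of largest deficit) from other barcodes, the 10 most abundant genes, 20 per direction by depth, and, as none was called, the 10 of smallest p by treatment. Genes outside this rule (Lpcat1, Plaur, Nfkbia, Cldn4, Mki67, Dgat1, Gata6, Ier3, Chac1 and Cdkn2a) were named after their values were seen. A few genes that this rule would name are not reported here. No doublet caller was run.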

Additional observations from a re-analysis of the deposited data

Results flagged for a closer look

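In ipilimumab replicate 1, 96 barcodes of at least 100 but under 500 UMIs, below the UMI limit of the rule, also had at least 5% surfactant UMIs, out of 13158 barcodes of that depth. The IgG1 libraries had 0, 2 and 0 such barcodes and ipilimumab replicates 2 and 3 had 2 and 0. These barcodes entered no comparison.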

How the results depend on the processing

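The difference in share kept its direction under all 18 alternatives, with values of 0.0962 to 1.17 when 1 mouse was left out. The difference in median UMIs, 223, turned to −2631 without IgG1 replicate 1, to −5772.5 without ipilimumab replicate 2 and to −1327 without ipilimumab replicate 3, in a range up to 7768.5. With at most 5% mitochondrial UMIs no IgG1 mouse had 3 members, so no median or gene test could be had.

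No gene was called under 20 alternatives, including each mouse left out in turn (0 to 0 genes). DESeq2 called 1 gene (Timp3, adjusted p = 0.0381), and no low-count filter gave 145 (142 higher, 3 lower, of 15092). Members of at least 2000 UMIs without ipilimumab replicate 1, chosen after seeing the data, gave 11, all higher. The cause was not tested. Where an alternative left 1 IgG1 mouse, that mouse was assumed to vary like the others. The 20 alternatives without a call were not all separate checks. No airway limit and every mouse with a member repeated the main fit. The UMI threshold of each library repeated the fit of at least 5000 UMIs, and at least 5 members per mouse repeated that without IgG1 replicate 1. Thinning each member to 500 UMIs left 27 genes to test. With total UMIs alone the median of all genes moved from 0.04 to 0.15. The 10 genes of smallest p and Slc34a2, Lamp3, Etv5 and Napsa kept their direction wherever an alternative tested them. For the 10 genes this is no support, because they were picked by their p in these data. Of the 10, 6 had 0 UMIs in both IgG1 mice and could only be higher. Other genes were not followed through the alternatives.

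The replicate block gave 72 calls (71 higher, 1 lower, of 4038 genes) with 1 residual degree of freedom. Same-numbered mice correlated at 0.044 and 0.027 in their deviations, over 2 pairs. With 2 IgG1 mice the deviations from the group mean mirror each other, so these values cannot decide whether the numbers pair the mice. The numbers were not taken to pair them.

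The depth comparison has no test and no alternatives, because 1 mouse alone had 3 members in both classes. With 4 to 7 members in 4 mice, single barcodes limit every expression value.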
